A study of Mus musculus with 7 samples.

Results

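The ADAM and ADAMTS metalloproteases were followed in subcutaneous mouse tumours given the hyaluronidase PEGPH20 or vehicle. Members were taken by name, under a rule set with earlier results of these data known. The rule took every mouse symbol made of Adam or Adamts and a number with nothing after it. That gave 46 of the 47643 gene rows in the table, 27 ADAM and 19 ADAMTS. Symbols that end in a letter (Adam1a, Adam1b, Adam6a, Adam6b, Adam26a and Adam26b), Adamdec1 and the 7 ADAMTS-like and related genes, which lack a protease domain, were not counted as members.

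The first group was 4 tumours from mice given PEGPH20, a pegylated form of the hyaluronidase PH20, at 0.0375 mg/kg (replicates 11, 12, 19 and 37). The comparison group was 3 tumours from mice given vehicle (replicates 14, 16 and 33). All 7 tumours had the genotype sgPrkci/Prkcz, so guide RNAs against the genes of both atypical protein kinases C were carried by the controls as well, and no tumour without them was compared. Cultured MTO cells, a name the labels do not spell out, were placed under the skin of the right flank of C57BL/6 mice aged 7 weeks, 0.5 × 10⁶ cells per mouse in 30% Matrigel. Dosing began on day 15 and ran 2 times a week for 3 weeks, and mice were labelled as 13 weeks old. The site is not the intestine, the labels do not say whether the cells were 1 clone or a pool, and tumour and host RNA are both mouse and were not separated. Nor do they say whether each replicate was a separate animal, so the p-values below measure the spread between these samples.

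ADAM proteins are mostly transmembrane enzymes that cut other membrane proteins close to the cell surface, a step called shedding. ADAM10 starts ligand-dependent Notch activation, and ADAM17 releases tumour necrosis factor and several ligands of the EGF receptor. ADAMTS proteins are secreted, carry thrombospondin repeats and act in the extracellular matrix, where some cut the hyaluronan-binding proteoglycans versican and aggrecan and others trim procollagens. Many other ADAM genes are expressed mainly in testis or brain, and a number of them encode proteins without an active protease.

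Active members share a zinc-binding site, in which 3 histidines hold the metal and a glutamate takes part in catalysis. The sites of the members that the results turn on are given below because they show what makes these genes proteases. They also show how some, but not all, of the proteoglycan-cleaving ADAMTS genes depart from the rest. Each was read 5′ to 3′ on the coding strand from the longest coding transcript in GENCODE M21 (build GRCm38). Capitals mark the 3 histidine codons, the glutamate codon and the eighth codon of the site.
Adam17: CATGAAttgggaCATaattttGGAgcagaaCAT
Adam10: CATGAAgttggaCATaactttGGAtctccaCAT
Adam9: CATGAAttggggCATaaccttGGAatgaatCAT
Adam15: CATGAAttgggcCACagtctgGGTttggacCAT
Adamts2: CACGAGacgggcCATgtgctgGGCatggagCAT
Adamts14: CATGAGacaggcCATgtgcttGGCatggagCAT
Adamts1: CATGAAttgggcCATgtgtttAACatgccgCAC
Adamts4: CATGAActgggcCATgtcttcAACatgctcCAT

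These sites lie in coding exons. In single exons are those of Adam17 at chr12:21336732-21336764 (minus strand), Adam9 at chr8:24990326-24990358 (minus) and Adam15 at chr3:89344780-89344812 (minus). An intron splits the sites of Adam10 at chr9:70754296-70761585 (plus), Adamts2 at chr11:50775403-50776134 (plus), Adamts14 at chr10:61225465-61227123 (minus), Adamts1 at chr16:85799191-85799545 (minus) and Adamts4 at chr1:171253210-171253915 (plus), so these spans include intron sequence that is not printed. The search asked for the 3 histidines, the glutamate and either glycine or asparagine at the eighth codon, and found such a site in 34 of the 46 members. Glycine stood there in 29 of them. Asparagine stood there in 5, which were Adamts1, Adamts4, Adamts9, Adamts15 and Adamts20, all of the proteoglycan-cleaving group. Adamts5, of the same group, has glycine there. No such site was found in 12 members: Adam2, Adam3, Adam4, Adam5, Adam7, Adam11, Adam18, Adam22, Adam23, Adam29, Adam32 and Adamts8. For Adamts8 this says only that these letters are not in the transcript searched.

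RNA was counted at the 3′ end of transcripts. The PEGPH20 libraries held 4582238 to 6703775 reads and the vehicle libraries 4204388 to 4304108, and mitochondrial genes took 10.97% to 12.28% of the reads of a library. Values are normalised read counts, meaning reads divided by 1 size factor per library. As reads were taken at transcript ends, values were not divided by gene length, and an order of genes below is an order of 3′-end read counts. The epithelial markers Epcam and Cdh1 were present in every library, with Epcam at 4188 to 5293 in PEGPH20 tumours and 5703 to 6398 in vehicle tumours. Cdx2, an intestinal transcription factor, stood at 6.08 to 16.1 in PEGPH20 tumours and 2.60 to 9.19 in vehicle tumours, and its relative Cdx1 had 0 reads in all 7. Libraries also differed in RNA of neighbouring tissue. Skeletal muscle markers (10 genes) summed to 192 to 3069 in PEGPH20 tumours, highest in replicate 11, and to 319 to 13290 in vehicle tumours, highest in replicate 16. Keratinocyte markers (7 genes) summed to 41.6 to 88.2 in PEGPH20 tumours and to 62.5 to 1110 in vehicle tumours, highest in replicate 14.

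Few members made up most of the family's RNA. Reads were found for 37 of the 46 members, and 12 had a mean of at least 20 normalised reads over the 7 libraries. Adam17 and Adam10 came first with means of 1156 and 1089, then Adam9 with 325 and Adam15 with 196. The values of Adam17 and Adam10 overlapped across the libraries (982 to 1339 and 853 to 1319), so their order is not beyond their spread, whereas the lowest Adam10 value lay above every Adam9 value (286 to 376). Adam9 in turn lay above every Adam15 value (125 to 239). From Adam15 downwards neighbours overlapped: Adamts2 (mean 147), Adamts1 (128), Adam19 (116), Adamts4 (113), Adam8 (68.1), Adam12 (66.6), Adamts5 (59.0) and Adamts9 (26.1). All 12 of these genes have the zinc-binding site. The member of highest mean without it was Adam4, at 7.66.

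**Figure D1:**
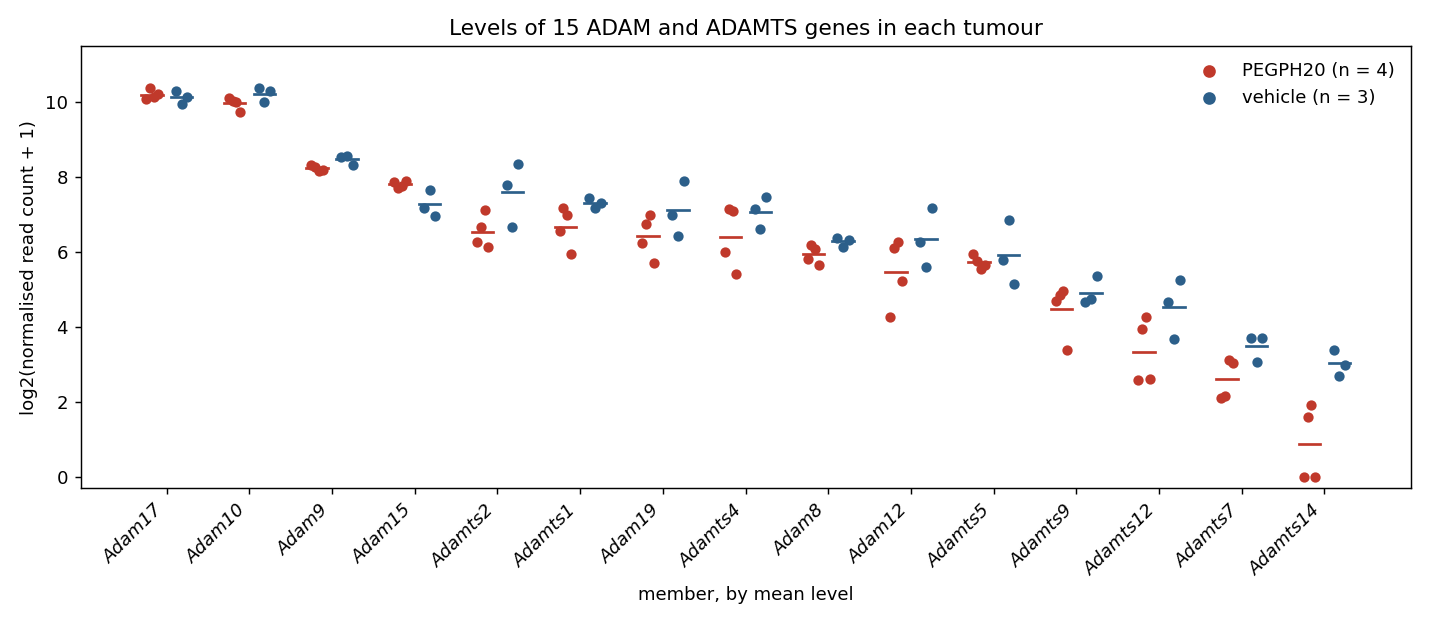
Levels of 15 members as log2(normalised read count + 1), 1 point per library and a bar at the group mean, PEGPH20 libraries left of vehicle libraries for each gene, genes in order of mean level. Adam17 and Adam10 lie at the top (853 to 1339 normalised reads), and only for Adam9, Adam15 and Adamts14 do the groups not overlap.

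The spread between libraries differed among members. Highest over lowest value was 1.32 for Adam9, 1.36 for Adam17 and 1.55 for Adam10, which encode widely expressed sheddases. It was 4.62 for Adam19, 4.68 for Adamts2, 7.50 for Adamts12 and 7.85 for Adam12. Within the PEGPH20 tumours, replicates 11 and 37 both lay below replicates 12 and 19 for Adamts1, Adamts2, Adamts4, Adamts9, Adamts12, Adamts14, Adam8, Adam12 and Adam19. Adam15 ran the other way, at 234 and 239 in replicates 11 and 37 and 209 and 218 in 12 and 19. Adamts5 was highest among the PEGPH20 tumours in replicate 11. Adam15 and Adamts5 were both lowest of all libraries in vehicle replicate 33. Replicate 37 was the lowest of all 7 libraries in 7 of the 12 members of mean 20 or more, and vehicle replicate 33 was the highest in 5 of them. As a sum, fibroblast markers (10 genes, among them Pdgfra, Col1a1 and Postn) were likewise smaller in PEGPH20 replicates 11 and 37. They were highest in vehicle replicate 33. Their summed values were 8348, 19023, 21587 and 10750 in PEGPH20 replicates 11, 12, 19 and 37. In vehicle replicates 14, 16 and 33 they were 19212, 17551 and 44722. Most of the sum came from Col1a2, Col1a1 and Col3a1, with means of 8607, 5534 and 3497 over the 7 libraries. Dcn alone on the list was highest in vehicle replicate 16 (592) and not in replicate 33 (548). Sums of pericyte and endothelial markers were also smaller in PEGPH20 replicates 11 and 37 than in 12 and 19, and those of skeletal muscle markers were larger (3069 and 952, with 192 and 205 in replicates 12 and 19).

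**Figure D2:**
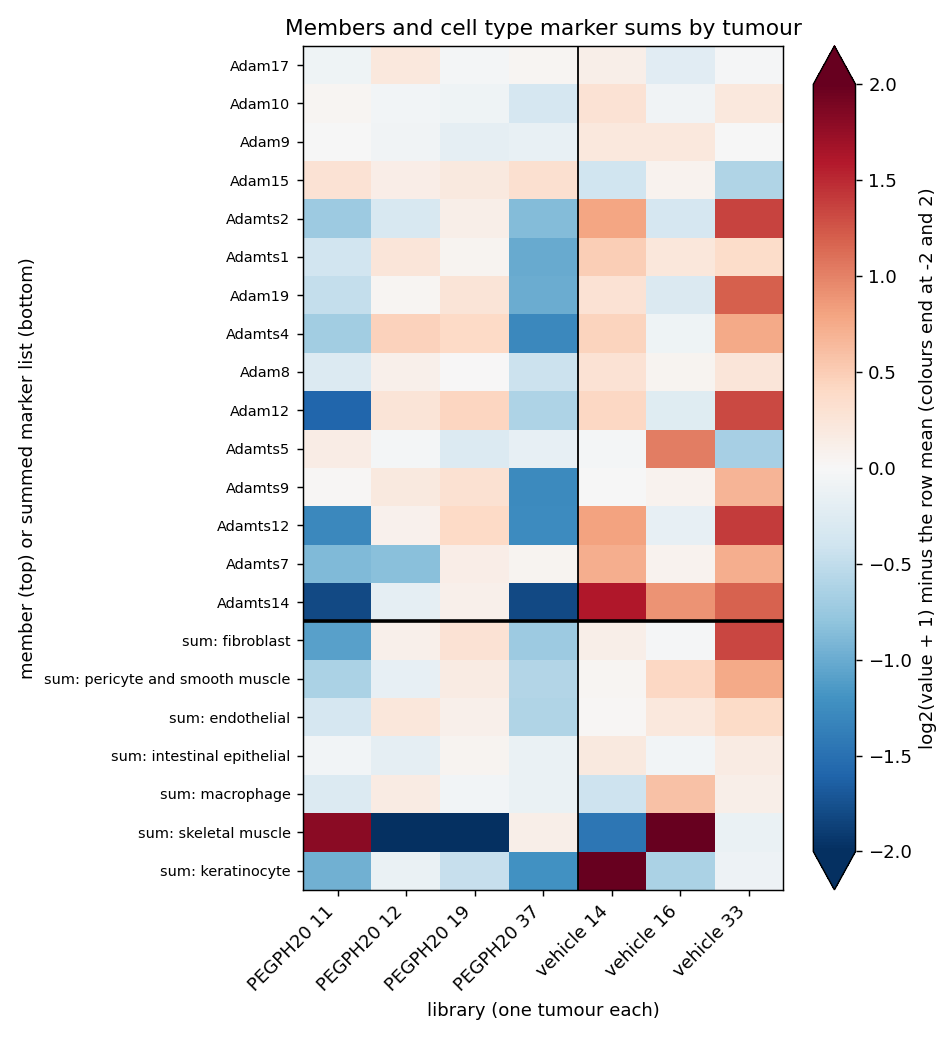
Each tile shows how far a member's log2(value + 1) lies from its own mean over the 7 libraries, PEGPH20 libraries on the left and vehicle libraries on the right; the rows under the black line do the same for summed cell type markers, and colours end at -2 and 2. PEGPH20 replicate 37 is the lowest library in 7 of the 12 members of mean 20 or more, and vehicle replicate 33 the highest in 5.

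PEGPH20 against vehicle was the only contrast in the design, and for the family it asks whether protease RNA differed with hyaluronidase treatment. No member passed the test. Of the 30 members with a mean of at least 1, which could be tested, 21 had smaller fitted values in PEGPH20 tumours and 9 had larger ones. The fit was limma on log2(value + 1) over 17132 genes, with p-values adjusted after Benjamini and Hochberg and called under 0.05. It called 0% of all genes and 0 of the 30 members, and the smallest adjusted p of any gene in that limma fit was 0.218. The median log2 difference, PEGPH20 minus vehicle, was -0.30 over the 30 members, with 0.03 over all genes tested, of which 46% had smaller values in PEGPH20 tumours. For the 14 tested ADAMTS genes the median was -0.63 (12 smaller, 2 larger), and for the 16 tested ADAM genes it was -0.15 (9 smaller, 7 larger).

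At an unadjusted p under 0.05, limma gave 7 members, 6 of them smaller (Adam9, Adamts1, Adamts2, Adamts7, Adamts12 and Adamts14) and 1 larger (Adam15) in PEGPH20 tumours. Among all genes tested 12.2% met that mark, 4.58% smaller and 7.58% larger. Under edgeR on the recovered reads the adjusted test called 0 of 18 members and 0% of 13079 genes, and 5 members had an unadjusted p under 0.05, where 13% of all genes did. DESeq2 called 0 of 37 members, only 11 of which it gave an adjusted p, and 0.261% of 24487 genes. Those 24487 also include genes without an adjusted p, so neither share is over callable genes alone. In DESeq2 8 of 37 members had an unadjusted p under 0.05, where 6.08% of all genes did. Groups did not overlap for 3 members, smaller in Adam9 and Adamts14 and larger in Adam15, where 11.2% of all genes tested showed no overlap, 4.45% smaller and 6.72% larger. These counts rested on single libraries. Without vehicle replicate 16, the library highest in skeletal muscle markers, 11 members had an unadjusted p under 0.05 in limma and 13 did not overlap, but 20.3% and 30.5% of all genes then did so too. Without vehicle replicate 14 or 33 the number at an unadjusted p under 0.05 was 3, and without PEGPH20 replicate 37 it was 4, where 9.61%, 7.72% and 8.11% of all genes met that mark. Leaving out PEGPH20 replicate 12 or 19, or vehicle replicate 14, left 5 members without overlap, where 15.5%, 18.1% and 19% of all genes did not overlap. The split of unadjusted calls over all genes moved with the scaling: 37.7% were smaller in PEGPH20 tumours as deposited and 50.7% under upper-quartile scaling, while the members gave 6 smaller and 1 larger as deposited and 8 smaller and 1 larger under upper-quartile scaling.

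**Figure D3:**
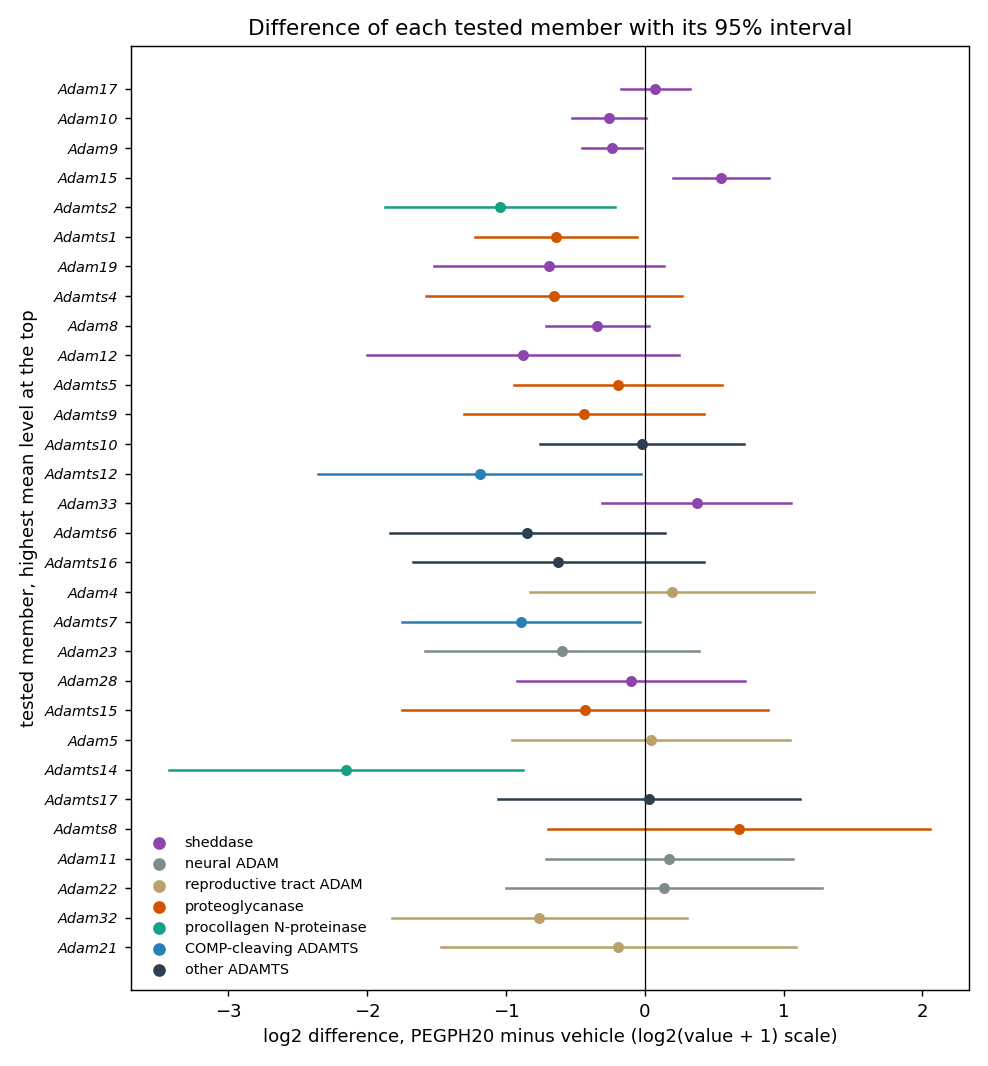
Log2 difference, PEGPH20 minus vehicle, of the tested members with 95% confidence intervals from limma, genes by mean level from top to bottom and coloured by role, a negative value meaning smaller in PEGPH20 tumours. Points lie left of 0 for 21 of 30 members and right of it for 9, and none passed the adjusted threshold.

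Sheddases of the ADAM group held the most abundant members. All 9 were tested, with smaller values in 6 and larger ones in 3, and a median difference of -0.24. Adam17, the main enzyme releasing tumour necrosis factor, had 1084, 1339, 1125 and 1180 normalised reads in PEGPH20 replicates 11, 12, 19 and 37, against 1253, 982 and 1132 in vehicle replicates 14, 16 and 33. The groups overlapped, with means of 1182 ± 112 (SD, n = 4) in PEGPH20 tumours and 1122 ± 136 (SD, n = 3) in vehicle tumours. Its log2 difference of 0.08 had a 95% interval from -0.17 to 0.33 (limma, adjusted p = 0.803) and turned to -0.02 without vehicle replicate 16.

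Adam10, the enzyme that cuts Notch receptors after ligand binding, had 1106, 1039, 1021 and 853 normalised reads in PEGPH20 tumours, against 1319, 1030 and 1255 in vehicle tumours. Replicate 16 of the vehicle group lay inside the PEGPH20 range, and the log2 difference was -0.26 ± 0.12 (SE; limma, adjusted p = 0.429). As a ratio within each library, Adam10 over Adam17 was 1.02, 0.776, 0.908 and 0.723 in PEGPH20 tumours, against 1.05, 1.05 and 1.11 in vehicle tumours. These ratios did not overlap between the groups. The ratio was picked after its values were seen and has no test.

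Adam9, another widely expressed membrane sheddase, had 321, 308, 286 and 293 normalised reads in PEGPH20 tumours, against 373, 376 and 321 in vehicle tumours. Its groups did not overlap, but the highest PEGPH20 value (320.7) and the lowest vehicle value (321.0) were less than 1 read apart. The log2 difference was -0.24 ± 0.10 (SE; limma, adjusted p = 0.391).

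Adam15, a membrane protease-disintegrin, was the only one of the 7 members at an unadjusted p under 0.05 with the larger values in PEGPH20 tumours. It had 234, 209, 218 and 239 normalised reads there, against 145, 200 and 125 in vehicle tumours, where replicate 16 came closest to the PEGPH20 values. Means were 225 ± 13.7 in PEGPH20 tumours (SD, n = 4) and 157 ± 39.1 in vehicle tumours (SD, n = 3), a log2 difference of 0.55 ± 0.15 (SE; limma, adjusted p = 0.313). Over the 18 other settings it lay between 0.40 and 0.74. An antisense gene overlaps an Adam15 exon, and whether the counting used strand was not given.

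The remaining sheddases were lower in level and more spread. Adam19, known for cutting neuregulins, had 74.6, 107, 125 and 51.8 normalised reads in PEGPH20 tumours, against 127, 85.5 and 239 in vehicle tumours. The groups overlapped, and the log2 difference of -0.69 ± 0.37 (SE; limma, adjusted p = 0.477) was -0.29 without vehicle replicate 33. Adam12, a protease of mesenchymal cells, had 18.2, 68.2, 76.8 and 36.5 normalised reads in PEGPH20 tumours, against 75.8, 47.8 and 143 in vehicle tumours. Replicate 11 was the lowest and vehicle replicate 33 the highest, and the log2 difference of -0.88 ± 0.50 (SE; limma, adjusted p = 0.500) was -0.46 when vehicle replicate 33 was left out and -0.47 when PEGPH20 replicate 11 was.

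Adam8, a sheddase of myeloid cells, had 55.5, 72.3, 67.4 and 49.6 normalised reads in PEGPH20 tumours, against 81.9, 69.8 and 79.8 in vehicle tumours. The groups overlapped at PEGPH20 replicate 12 and vehicle replicate 16, and the log2 difference was -0.34 ± 0.17 (SE; limma, adjusted p = 0.439). Macrophage markers (8 genes, none at 0) had smaller values in PEGPH20 tumours for 8 of 8. Their sums were 1837 to 2467 in PEGPH20 tumours and 1655 to 3327 in vehicle tumours. Neutrophil markers (6 genes) had smaller values for 4 and larger values for 2. Their sums were 284 to 494 in PEGPH20 tumours and 305 to 1116 in vehicle tumours. The neutrophil sum was highest in vehicle replicate 14 (1116), where Adam8 was also highest (81.9) and the macrophage sum was lowest. In vehicle replicate 33 Adam8 was nearly as high (79.8), but the neutrophil sum there was 305. Among PEGPH20 tumours Adam8 was highest in replicate 12 (72.3), where the neutrophil sum was lowest (284) and the macrophage sum highest (2467). The part of either cell type in the Adam8 values was not tested. Adam33 averaged 15.4 ± 4.72 normalised reads in PEGPH20 tumours (SD, n = 4) and 11.6 ± 3.50 in vehicle tumours (SD, n = 3), and Adam28 averaged 6.09 ± 1.02 in PEGPH20 tumours and 7.06 ± 3.75 in vehicle tumours. The last exons of Adam17, Adam19, Adam8, Timp3 and Frmd8, where this assay reads, overlap a gene on the other strand. Reads of that partner cannot be told apart without knowing the strand setting. Antisense genes also overlap exons of Adamts4, Adamts8, Adamts9, Adam3, Furin, App and Thbs1, and a gene on the same strand overlaps Adam34, Col3a1 and Pcsk6.

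The proteoglycan-cleaving group (Adamts1, Adamts4, Adamts5, Adamts8, Adamts9, Adamts15 and Adamts20) acts on proteoglycans some of which, versican and aggrecan among them, bind hyaluronan. Of its 6 tested genes 5 had smaller values in PEGPH20 tumours and 1 larger, with a median difference of -0.44. Adamts1, which cuts versican and aggrecan, had 93.6, 144, 126 and 60.6 normalised reads in PEGPH20 tumours, against 173, 143 and 159 in vehicle tumours. The groups overlapped narrowly at PEGPH20 replicate 12 and vehicle replicate 16, and the log2 difference of -0.64 ± 0.26 (SE; limma, adjusted p = 0.391) was -0.40 without PEGPH20 replicate 37. Leaving out the 3 libraries highest in muscle markers gave -0.29 (PEGPH20 replicates 11 and 37 and vehicle replicate 16).

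Adamts4, an aggrecanase, had 63.0, 141, 136 and 41.6 normalised reads in PEGPH20 tumours, against 140, 96.5 and 175 in vehicle tumours. Replicates 11 and 37 stood below every vehicle value while 12 and 19 lay within the vehicle range, and the log2 difference of -0.65 ± 0.41 (SE; limma, adjusted p = 0.537) was -0.32 without PEGPH20 replicate 37. It was -0.175 with all 3 muscle-rich libraries left out. Adamts5, the other main aggrecanase of cartilage, had 61.3, 53.7, 45.8 and 49.6 normalised reads in PEGPH20 tumours, against 54.0, 114 and 34.7 in vehicle tumours. Its vehicle values enclosed the PEGPH20 values, and the log2 difference of -0.19 ± 0.33 (SE; limma, adjusted p = 0.841) turned to 0.27 without vehicle replicate 16, which held the value of 114 and the most skeletal muscle RNA. The part of muscle RNA in that value was not tested.

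Adamts9, a versican-cleaving protease, had 24.9, 28.2, 30.4 and 9.48 normalised reads in PEGPH20 tumours, against 24.4, 25.7 and 39.9 in vehicle tumours, and the groups overlapped. Adamts15 ranged from 2.49 to 9.65 in PEGPH20 tumours and from 2.62 to 17.5 in vehicle tumours. Adamts8 ranged from 1.10 to 6.63 in PEGPH20 tumours and from 0 to 2.76 in vehicle tumours, and Adamts20 had 4 reads in all. Summed over the 7 genes, the group gave 252, 380, 346 and 168 normalised reads in PEGPH20 tumours, against 396, 400 and 414 in vehicle tumours. The sums did not overlap, but Adamts5 alone gave 114 of the 400 in vehicle replicate 16, the library highest in muscle markers. Without that gene, vehicle replicate 16 would fall inside the PEGPH20 range. The sum too was noticed after the values were seen and carries no test.

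Procollagen N-proteinases, which remove the amino-terminal propeptide of fibrillar procollagens, had smaller values in PEGPH20 tumours for both tested genes of 3. Adamts2, which acts on procollagen I, had 76.2, 101, 138 and 69.3 normalised reads in PEGPH20 tumours, against 219, 100.2 and 324 in vehicle tumours. Vehicle replicate 16 lay inside the PEGPH20 range and replicates 14 and 33 above it. Means were 96.2 ± 31.1 (SD, n = 4) in PEGPH20 tumours and 214 ± 112 (SD, n = 3) in vehicle tumours, a log2 difference of -1.04 ± 0.37 (SE; limma, adjusted p = 0.355). It was -0.67 without vehicle replicate 33 and -1.51 without vehicle replicate 16, where the adjusted p in limma was 0.0644.

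Adamts14, a close relative of Adamts2, gave 0, 3, 5 and 0 reads in PEGPH20 replicates 11, 12, 19 and 37, against 11, 6 and 8 reads in vehicle replicates 14, 16 and 33. As normalised reads these were 0, 2.07, 2.76 and 0 in PEGPH20 tumours, against 9.59, 5.51 and 6.94 in vehicle tumours, and the groups did not overlap. The log2 difference of -2.15 ± 0.57 (SE; limma, adjusted p = 0.305) depends on the pseudocount at so few reads, and ran from -3.86 with a pseudocount of 0.1 to -1.01 with a pseudocount of 5. Adamts3, which also processes the lymphatic growth factor VEGF-C, had 2 reads in all and was not tested.

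Both COMP-cleaving members, named for cartilage oligomeric matrix protein, had smaller values in PEGPH20 tumours at an unadjusted p under 0.05 in limma, as had 4.58% of all genes. In DESeq2 only Adamts12 had one. In edgeR neither did: Adamts12 had an unadjusted p of 0.0502, and Adamts7 was not tested there. Adamts12 had 4.97, 14.5, 18.2 and 5.11 normalised reads in PEGPH20 tumours, against 24.4, 11.9 and 37.3 in vehicle tumours, and vehicle replicate 16 lay among the PEGPH20 values. The log2 difference was -1.19 ± 0.52 (SE; limma, adjusted p = 0.406). Adamts7 had 3.31, 3.44, 7.73 and 7.30 normalised reads in PEGPH20 tumours, against 12.2, 7.35 and 12.1 in vehicle tumours, with the same vehicle replicate inside the PEGPH20 range. Its log2 difference was -0.89 ± 0.38 (SE; limma, adjusted p = 0.402), and its last exon overlaps a gene on the other strand.

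Of the 6 other ADAMTS genes 4 were tested. Adamts6, tied in mice to fibrillin microfibrils, averaged 7.31 ± 3.43 normalised reads in PEGPH20 tumours (SD, n = 4) and 14.3 ± 7.68 in vehicle tumours (SD, n = 3). Adamts10, its close relative, averaged 18.1 ± 5.05 in PEGPH20 tumours and 18.9 ± 7.36 in vehicle tumours, with overlapping values. Adamts16 averaged 7.39 ± 5.55 in PEGPH20 tumours and 10.3 ± 2.23 in vehicle tumours, and Adamts17 averaged 2.34 ± 0.80 in PEGPH20 tumours and 2.62 ± 2.27 in vehicle tumours. Adamts18 had 2 reads in all. Adamts19 and Adamts13, the protease that cuts von Willebrand factor, had 0.

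Cell types that could carry these RNAs were gauged by lists of markers. The lists were chosen with earlier results of these data known, so counts over them are descriptions and no tests. Fibroblast markers had smaller values in PEGPH20 tumours for 10 of 10 genes, 7 of them at an unadjusted p under 0.05 in limma (4.58% of all genes did so in that direction) and 0 at an adjusted one, and none was at 0 reads. DESeq2 passed the fibroblast marker Lum with smaller values (adjusted p = 0.00996) and the epithelial marker Cldn7 with larger values in PEGPH20 tumours (adjusted p = 0.00881). Of all genes in DESeq2, counting those without an adjusted p, 0.261% passed. No other fibroblast marker did. The Lum groups overlapped, with 36.5 in PEGPH20 replicate 19 and 34.9 in vehicle replicate 16, and vehicle replicate 33 reached 169. Summed fibroblast marker values ran from 8348 to 21587 in PEGPH20 tumours and from 17551 to 44722 in vehicle tumours. Pericyte and smooth muscle markers had smaller values for 8 of 8 genes, with sums of 718 to 1254 in PEGPH20 tumours and 1154 to 1899 in vehicle tumours. Endothelial markers did so for 8 of 8, with sums of 330 to 589 in PEGPH20 tumours and 509 to 652 in vehicle tumours. Intestinal epithelial markers had smaller values for 5 of 9 tested genes and larger values for 4, with sums of 15441 to 18042 in PEGPH20 tumours and 16828 to 20070 in vehicle tumours. Keratinocyte markers had smaller fitted values for 7 of 7 genes and skeletal muscle markers for 10 of 10. Single vehicle libraries stood out, with a keratinocyte sum of 1110 in replicate 14 and a muscle sum of 13290 in replicate 16. The mean of the keratinocyte marker Trp63 was larger in PEGPH20 tumours (9.07) than in vehicle tumours (5.82). Des is on both the muscle list and the pericyte and smooth muscle list. T cell markers had larger values for 8 of 8, with sums of 69.0 to 123 in PEGPH20 tumours and 41.8 to 117 in vehicle tumours. Red blood cell markers had larger values for 5 of 5 genes, and adipocyte markers had larger values for 2 of 3 tested genes and smaller for 1. Neutrophil markers had smaller values for 4 genes and larger for 2. B cell and plasma cell markers had smaller values for 3 tested genes and larger for 1. In bulk tumour RNA, fewer cells of a type and less RNA per cell cannot be told apart, and the part of any of these cell types in the member values was not tested. Leaving out the 3 libraries highest in muscle markers (PEGPH20 replicates 11 and 37 and vehicle replicate 16), a choice made after the data were seen, left 14 of 30 members without overlap, 11 smaller and 3 larger, where 44% of all genes did not overlap.

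The family's composition also varied between libraries. Members together took 871, 1023, 953 and 830 RPM (reads per 10⁶ reads of the library) in PEGPH20 tumours, against 1109, 881 and 1126 in vehicle tumours, and the groups overlapped at vehicle replicate 16. Within the family's reads, ADAMTS genes took 10.98%, 14.6%, 15.9% and 9.05% in PEGPH20 tumours, against 16.9%, 16.6% and 20.5% in vehicle tumours. Adam17 took 32.8%, 35.8%, 31.9% and 39.1% in PEGPH20 tumours, against 30.4%, 28.8% and 26.9% in vehicle tumours. Neither share overlapped between the groups, and shares of 1 total move against each other, so these 2 are not separate results. Both were chosen after seeing the values and carry no test.

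**Figure D4:**
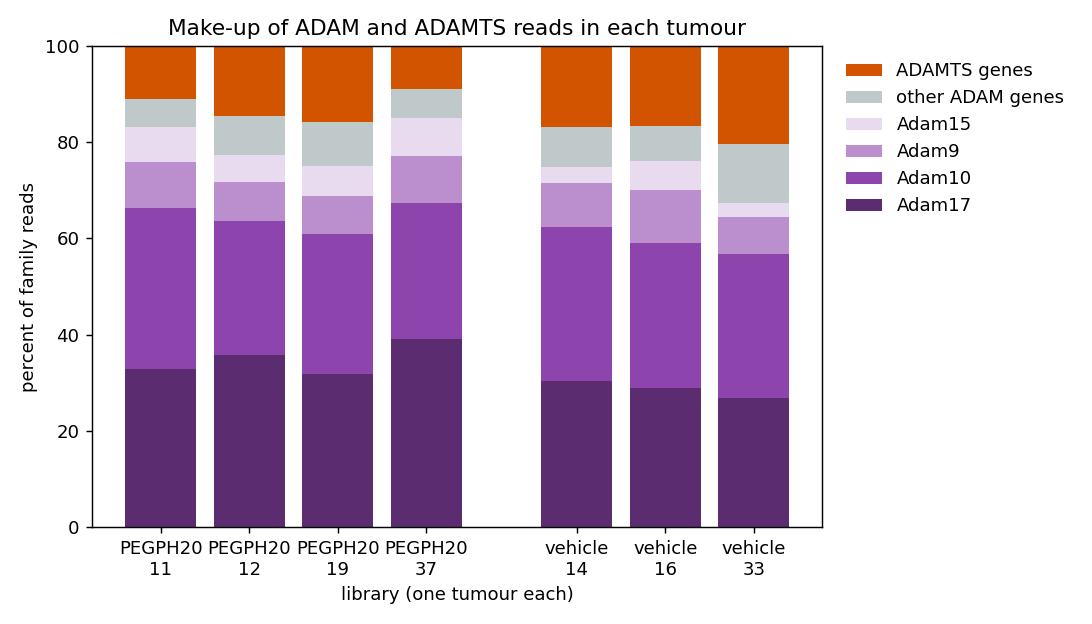
Composition of the reads of the 46 members in each library, in percent of the family's reads, PEGPH20 libraries left of vehicle libraries. The ADAMTS part spans 9.05% to 15.9% in PEGPH20 tumours and 16.6% to 20.5% in vehicle tumours, and the Adam17 part spans 31.9% to 39.1% in PEGPH20 tumours and 26.9% to 30.4% in vehicle tumours.

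The reproductive tract group (15 members, most of them known from testis and sperm) was at or near 0. Reads were absent in all 7 libraries for 7 of them (Adam7, Adam18, Adam20, Adam24, Adam25, Adam29 and Adam34). Adam2 and Adam3, sperm surface proteins needed for fertilisation in mice, had 1 and 5 reads in all. With Adamts13 and Adamts19, 9 members had 0 of 34340747 reads, which allows up to 0.0874 RPM for each, counting error only. Adam4 and Adam5 had the highest values of the group, at 2.76 to 11.02 and 1.84 to 7.85 normalised reads across the libraries. Adam21 ranged from 0 to 3.31 in PEGPH20 tumours and from 0.872 to 2.60 in vehicle tumours, Adam32 ranged from 0.730 to 1.66 in PEGPH20 tumours and from 0.919 to 4.36 in vehicle tumours, and Adam30 and Adam39 had 5 and 1 reads in all. Testis germ cell markers (6 genes, none tested) summed to 0 to 1.66 in PEGPH20 tumours and 1.74 to 4.60 in vehicle tumours, and Prm2 was at 0. Among the neural ADAM genes, which lack the zinc-binding site, Adam23 averaged 5.34 ± 0.820 in PEGPH20 tumours (SD, n = 4) and 9.82 ± 5.75 in vehicle tumours (SD, n = 3). Adam11 averaged 2.55 ± 1.09 in PEGPH20 tumours and 2.08 ± 0.588 in vehicle tumours, and Adam22, a receptor for the secreted protein LGI1, averaged 2.43 ± 1.55 in PEGPH20 tumours and 2.04 ± 1.30 in vehicle tumours.

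Genes that act with the family were counted in 6 lists, chosen with earlier results of these data known. None of the lists held a gene that passed the adjusted limma test. Tissue inhibitors of metalloproteases and Reck gave 4 tested genes of 5, 3 with smaller and 1 with larger values in PEGPH20 tumours, and a median difference of -0.03. Timp3, the inhibitor of ADAM17 and of several ADAMTS proteases, averaged 1424 ± 469 normalised reads in PEGPH20 tumours (SD, n = 4) and 1391 ± 308 in vehicle tumours (SD, n = 3). Timp2 averaged 1698 ± 345 in PEGPH20 tumours and 1788 ± 447 in vehicle tumours. Reck, a membrane-anchored inhibitor, had 3.44 to 4.42 in PEGPH20 tumours and 4.60 to 6.94 in vehicle tumours, without overlap but with only 43 reads in all. Of all genes tested, 11.2% showed no overlap.

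Partners of ADAM10 and ADAM17 included the TspanC8 tetraspanins, which carry ADAM10 to the cell surface and steer its substrate choice, and the iRhoms, which do so for ADAM17. Of 9 such genes 8 were tested, 2 with smaller and 6 with larger values. Groups did not overlap for 2 genes with smaller and 1 with larger values, where 11.2% of all genes tested showed no overlap. Tspan14 had 925, 952, 919 and 855 normalised reads in PEGPH20 tumours, against 1329, 1268 and 1191 in vehicle tumours. The groups did not overlap, and the log2 difference was -0.47 ± 0.08 (SE; limma, adjusted p = 0.238). DESeq2, the only one of the 18 other settings to do so, passed it with an adjusted p of 0.000147. Of all genes in DESeq2, counting those without an adjusted p, 0.261% passed. Tspan17 had 26.5, 23.4, 43.1 and 23.3 in PEGPH20 tumours, against 48.8, 46.9 and 90.2 in vehicle tumours, a log2 difference of -1.05 ± 0.29 (SE; limma, adjusted p = 0.313). Tspan5 had the larger values in PEGPH20 tumours without overlap, at 104, 73.7, 81.7 and 161 in PEGPH20 tumours, against 68.9, 64.3 and 58.1 in vehicle tumours (0.65 ± 0.24, SE; limma, adjusted p = 0.374). Leaving out PEGPH20 replicate 37 gave 0.42, and leaving out the 3 libraries highest in muscle markers gave 0.29. Frmd8, which stabilises the iRhoms, averaged 172 ± 13.1 in PEGPH20 tumours (SD, n = 4) and 170 ± 18.1 in vehicle tumours (SD, n = 3). Proprotein convertases, which remove the inhibitory propeptide of most members, were tested in 4 of 4 genes, 3 smaller and 1 larger, and Furin averaged 626 ± 111 in PEGPH20 tumours and 656 ± 92.9 in vehicle tumours.

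Membrane proteins shed by ADAM10 or ADAM17 gave 27 tested genes of 28, 17 with smaller and 10 with larger values. The median difference was -0.03, and Erbb4 had 0 reads. Groups did not overlap for 2 genes with smaller and 1 with larger values, where 11.2% of all genes tested showed no overlap. Cd44, the hyaluronan receptor that ADAM10 can shed, had 5456, 5771, 5592 and 5392 normalised reads in PEGPH20 tumours, against 7270, 7077 and 6869 in vehicle tumours. No value overlapped, and the log2 difference was -0.35 ± 0.09 (SE; limma, adjusted p = 0.302; DESeq2, adjusted p = 0.000404). Btc, an EGF receptor ligand released by ADAM10, had 249, 356, 219 and 249 in PEGPH20 tumours, against 174, 140 and 158 in vehicle tumours, also without overlap (0.75 ± 0.16, SE; limma, adjusted p = 0.275). App, a transmembrane protein cut by both enzymes, averaged 2061 ± 119 in PEGPH20 tumours (SD, n = 4) and 2373 ± 138 in vehicle tumours (SD, n = 3), without overlap. Jag1, a Notch ligand, averaged 217 ± 29.1 in PEGPH20 tumours and 279 ± 58.6 in vehicle tumours. Cdh1, encoding E-cadherin, averaged 6201 ± 479 in PEGPH20 tumours and 6333 ± 734 in vehicle tumours, with overlap.

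Matrix and plasma substrates of the ADAMTS proteases gave 14 tested genes of 17, and 14 of 14 had smaller fitted values in PEGPH20 tumours. The median difference was -0.59, with 0.03 over all genes. As the list was chosen with earlier results of these data known, this count is a description and no test. At an unadjusted p under 0.05 in limma were 3 of them, where 4.58% of all genes were so in that direction. Thbs1, encoding thrombospondin 1, had 1230, 1029, 1220 and 1261 normalised reads in PEGPH20 tumours, against 1372, 1690 and 1477 in vehicle tumours (-0.35 ± 0.11, SE; limma, adjusted p = 0.325). Dcn, encoding the proteoglycan decorin, had 326, 364, 355 and 347 in PEGPH20 tumours, against 366, 592 and 548 in vehicle tumours (-0.50 ± 0.15, SE; limma, adjusted p = 0.333). Both were without overlap, as were 4.45% of all genes tested in that direction. Col3a1, encoding type III collagen, averaged 2445 ± 941 in PEGPH20 tumours (SD, n = 4) and 4899 ± 2722 in vehicle tumours (SD, n = 3), with overlap. Type I collagen genes averaged 6399 ± 2873 (Col1a2) and 4219 ± 1974 (Col1a1) in PEGPH20 tumours, and 11551 ± 6700 (Col1a2) and 7287 ± 4536 (Col1a1) in vehicle tumours. Col1a1, Col1a2, Col3a1 and Dcn are on the fibroblast marker list as well, so these counts are not separate. ADAMTS-like and related genes gave 5 tested genes of 7, 3 smaller and 2 larger. Among them Thsd4 averaged 215 ± 10.7 in PEGPH20 tumours and 187 ± 35.8 in vehicle tumours, Adamtsl4 averaged 51.0 ± 16.8 in PEGPH20 tumours and 79.5 ± 28.4 in vehicle tumours, and Adamtsl1 averaged 25.5 ± 8.33 in PEGPH20 tumours and 42.4 ± 14.5 in vehicle tumours.

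Promoter sequences were at hand for 22 of the 46 members (RefSeq, GRCm38.p6, 250 bases before to 50 after the start), too few for a statement on the whole family. Those of Adam15 and Adamts2, a membrane-bound and a secreted member among the 5 of highest mean, are shown, and each holds 5 copies of the GC box. Promoters of Adam10 and Adam17, also among those 5 members, hold fewer copies (3 and 1) and are not shown. Capitals mark GGGCGG on either strand, with copies that overlap each other joined. The Adam15 promoter lies at chr3:89349979-89350278 (minus strand) and the Adamts2 promoter at chr11:50601835-50602134 (plus strand).
Adam15: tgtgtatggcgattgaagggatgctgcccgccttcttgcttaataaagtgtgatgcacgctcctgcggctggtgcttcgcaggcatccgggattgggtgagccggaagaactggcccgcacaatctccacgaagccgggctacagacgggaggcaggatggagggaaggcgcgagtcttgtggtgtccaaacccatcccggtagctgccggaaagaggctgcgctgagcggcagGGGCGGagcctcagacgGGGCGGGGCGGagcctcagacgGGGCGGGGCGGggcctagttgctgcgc
Adamts2: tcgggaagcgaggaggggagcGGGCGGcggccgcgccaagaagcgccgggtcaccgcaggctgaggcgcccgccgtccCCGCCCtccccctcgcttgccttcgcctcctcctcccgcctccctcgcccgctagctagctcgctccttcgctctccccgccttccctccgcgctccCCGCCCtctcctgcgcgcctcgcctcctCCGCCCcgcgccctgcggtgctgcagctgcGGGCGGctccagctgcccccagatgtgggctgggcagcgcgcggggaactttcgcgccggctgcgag

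The GC box was found in 12 of the 22 matched members and in 35.9% of all 27025 promoters of the same length. Neither the AP-1 motif TGANTCA nor TATAAA was found on either strand of these 2 promoters, and such motifs are in 7.92% and 14.2% of all promoters. A match of letters is a description and was not set against the expression values.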

How the data were processed

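RNA of 7 tumours was read from 200 ng of total RNA with the QuantSeq 3′ FWD kit (optional molecular identifiers), single end, 75 nt, per the labels' protocols. Per the submitters' processing notes, GRCm38 was the build. For aligner, counting, annotation, strand setting and normalization, tools are not given in the sources used here. Each library has 1 signal value per gene, which the authors deposited. From the values, this deposited signal is a read count over 1 size factor per library: 100% of values were whole multiples of the smallest (tolerance 0.01), and dividing by it recovered whole reads. Libraries of a group differed beyond counting error (chi-square per degree of freedom 6.59 to 16.4), so none was a copy.

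limma 3.58.1 (R 4.3.3) was fitted on log2(value + 1) with an intensity trend to all 7 libraries, treatment being the only term, for the 17132 genes with a mean of at least 1, with Benjamini-Hochberg adjustment over all of them. A difference on this scale understates changes of low genes. Alternatives were edgeR 4.0.16 and DESeq2 1.42.0 on the recovered reads, other scalings, pseudocounts of 0.1 and 5, other filters, sample weights and each library left out. Symbols matched 47224 gene identifiers; exons came from GENCODE M21. Members, lists and roles were chosen with earlier results of these data known. Named were members with a mean of at least 20, an unadjusted p under 0.05 or groups without overlap; from the lists, genes meeting either of the last 2 criteria and the 2 of highest mean; other members are given by range, mean or reads. Intervals for 0 reads cover counting error only.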

Additional observations from a re-analysis of the deposited data

Results flagged for a closer look

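Among the 37 named genes, each taken in the 4 PEGPH20 libraries, 1 value stood far from the rest. Tspan17 had 43.1 normalised reads in PEGPH20 replicate 19, against 23.3 to 26.5 in the other PEGPH20 replicates, so that the gap to its neighbour was 0.839 of the group's range, past the 95% critical value of Dixon's test for 4 samples. Chance gives about 1 such value in 20 groups. Vehicle tumours had 46.9 to 90.2 and lay above all 4 PEGPH20 values.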

How the results depend on the processing

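No member passed the adjusted threshold under any of the 18 other settings. Of the log2 differences of the 15 named members under them, 263 of 266 kept their direction, and the median over the members stayed between -0.41 and -0.19. The exceptions were Adam17, at -0.016 without vehicle replicate 16 (-0.016 to 0.16 with 1 library left out), and Adamts5, at 0.27 without that replicate (-0.58 to 0.27) and 0.19 without the 3 libraries highest in muscle markers. DESeq2 called 64 of all genes; leaving out 1 library gave 0 to 3 called genes. Members at an unadjusted p under 0.05 were 4 with a mean of at least 10 (fewer genes tested) and 3 to 11 with 1 library left out. Members without overlap were 3 to 13 with 1 library left out, 2 to 11 of them smaller and 1 to 2 larger in PEGPH20 tumours, and 14 without the muscle-rich libraries (11 smaller, 3 larger). With edgeR and with a mean of at least 10, where fewer genes were tested, 1 smaller member was left. Of 394 values of the 22 named list genes, 371 kept direction and side of the threshold, 2 passed it (Cd44 and Tspan14 in DESeq2) and 21 turned. Frmd8 turned to -0.024 in DESeq2, in edgeR (-0.023) and with DESeq2 size factors (-0.021), to -0.013 with TMM and -0.027 with upper-quartile scaling, to -0.035 without PEGPH20 replicate 11 and to -0.071 without vehicle replicate 14 (-0.071 to 0.082 with 1 library left out). Timp2 turned to 0.0039, 0.037, 0.0037 and 0.086 without PEGPH20 replicates 11 and 37 and vehicle replicates 14 and 33 (-0.28 to 0.086). Timp3 turned to 0.12 with sample weights, 0.34 without the muscle-rich libraries, and 0.20, 0.045 and 0.14 without PEGPH20 replicate 37 and vehicle replicates 16 and 33 (-0.19 to 0.20). Cdh1 turned to 0.0067 and 0.053 without PEGPH20 replicate 37 and vehicle replicate 14 (-0.12 to 0.053). Furin turned to 0.017 without the muscle-rich libraries, and to 0.0098 and 0.021 without PEGPH20 replicate 37 and vehicle replicate 33 (-0.19 to 0.021). The cause was not tested. No paired analysis was possible because the groups share no replicate number. Depth limits the 7 untested members with 1 to 5 reads, and Adamts14 with at most 11 reads in a library.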
